A study of Mus musculus with 6 samples.

Results

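The genes described here encode the proteins of the cytosolic ribosome and their close paralogs. Members were chosen by name, as symbols of the form Rpl, Rps, Rplp or Rpsa with a number, including forms ending in a, l or x and the paralogs Rpl22l1 and Rps27l, and leaving out symbols marked as pseudogenes. The rule found 85 of the 55487 genes in the table, of which 80 had a mean of at least 10 normalized reads over the 6 libraries and were tested. Single members are described for standing apart from the family, and that was judged on the same knockout comparison reported here. Their differences are therefore a description of these libraries and no independent evidence.

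RNA-seq was performed on YFP-positive cells sorted from the subventricular zone, the neurogenic niche beside the lateral ventricle of the mouse brain. Both genotypes carried NestinCreERT2/R26;EYFP, were on the C57BL/6;Sv/129;FVB/N background and were 6 to 10 weeks old when tamoxifen gavage (200 mg/kg per day for 5 days) began. Nestin regulatory sequence drives the inducible Cre, so the YFP reporter marks cells that expressed Nestin at dosing together with their descendants. The control group, called heterozygous, was E2F1(+/-);E2F3(F/+), so these cells also had 1 altered copy of each gene. The knockout group was E2F1(-/-);E2F3(F/F). Each genotype had 3 libraries, A, B and C, each made from cells of several mice pooled 10 days after the last dose, and the study asked how activator E2F transcription factors relate to quiescent and activated neural stem cells.

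The ribosome is built from ribosomal RNA and ribosomal proteins in a large and a small subunit. Messages for these proteins commonly begin with a C followed by a run of pyrimidines, the terminal oligopyrimidine tract, through which mTORC1 and LARP1 control their translation. Members are usually expressed in parallel, since the subunits need near-equal amounts of each protein, and cells that grow and divide commonly hold more of these messages than quiescent cells. Many have processed pseudogenes with near-identical sequence, so reads of a member and of its copies can be hard to tell apart.

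The start-site sequence was looked at first, since the members share a function and the name rule did not use sequence. Of the 85 members, 63 had a promoter entry in RefSeq (GRCm38.p6), and 14 of these (22.2%, exact 95% interval 12.7% to 34.5%) had C at the annotated start followed by at least 4 letters that were C or T. The same letters stood at the start of 3.01% of all 27025 genes with an entry. Rpl29, described below, was among the members without an entry and was not searched. The 30 bases around the start, 15 of them upstream in each case, are shown with the run in capitals. The members shown were picked for having a run, with a negative or a positive difference. Rpl15 (chr14:18270972-18271001, minus strand), Rpl35 (chr2:39005117-39005146, minus strand) and Rps18 (chr17:33955651-33955680, minus strand) had the longest runs among members with a negative log2 difference between genotypes, apart from that of Rps6, which equalled the run of Rps18. Rps10 (chr17:27635230-27635259, minus strand), Rpl38 (chr11:114668565-114668594, plus strand) and Rps27 (chr3:90213634-90213663, minus strand) had a run and a positive difference.
Rpl15: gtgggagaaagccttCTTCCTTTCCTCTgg
Rpl35: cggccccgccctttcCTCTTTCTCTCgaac
Rps18: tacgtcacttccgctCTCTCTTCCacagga
Rps10: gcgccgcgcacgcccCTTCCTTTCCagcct
Rpl38: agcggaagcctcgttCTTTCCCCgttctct
Rps27: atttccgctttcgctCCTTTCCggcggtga

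Members without these letters at the annotated start lay at both ends of the range of differences among tested members with an entry. Rps2 (chr17:24720048-24720077, plus strand) and Rps28 (chr17:33824548-33824577, minus strand) had negative differences, and Rpl41 (chr10:128549154-128549183, minus strand) and Rpl22l1 (chr3:28805493-28805522, plus strand) had positive ones. In Rpl22l1 a short pyrimidine stretch lay downstream of the annotated start.
Rps2: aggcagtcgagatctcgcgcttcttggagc
Rps28: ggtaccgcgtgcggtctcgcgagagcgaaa
Rpl41: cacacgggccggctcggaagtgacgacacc
Rpl22l1: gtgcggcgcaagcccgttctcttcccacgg

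Among tested members with an entry, the 13 with a run at the start had a median log2 difference of -0.24 (range -0.49 to 0.20), and the 46 without had a median of -0.28 (range -0.66 to 0.29). With the start of the run allowed within 5 bases of the annotated start, 30 of 63 members (47.6%) and 21.2% of all genes held it. Neither this search nor the next covered Rpl29, which had no entry. The letters of the E2F site, searched as TTTCCCGC, TTTCGCGC, TTTGCCGC or TTTGGCGC on both strands from 250 bases before to 50 after the start, were present in 1 of 63 members (1.59%) and in 2.61% of all genes. That member was Rpsa, a small subunit protein also known as the laminin receptor precursor, with the match in capitals beginning 23 bases after its start (chr9:120127781-120127804, plus strand).
Rpsa: gcccgtccTTTCGCGCtacccggg

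The libraries held 19798675 (knockout A) to 25982361 (knockout B) reads assigned to genes. E2f1 stood at 1152, 1388 and 1030 normalized reads in the heterozygous libraries and at 375, 483 and 516 in the knockout libraries (log2 difference -1.38 ± 0.22 SE, limma adjusted p = 0.00559). E2f3 did not pass (log2 difference 0.09 ± 0.28, adjusted p = 0.845), and reads summed over the whole gene do not resolve the floxed segment. All 12 neuroblast markers and all 10 proliferation markers were called lower, against 8.59% of all tested genes. Of the ependymal markers 8 of 10 were called higher, against 7.23% of all tested genes. Of the 12 quiescent stem cell and astrocyte markers 2 were called higher. All 12 differences were positive, with a median of 0.66, where 9524 of all 18227 tested genes had a positive difference. In cells sorted and pooled as here, fewer cells of a type and less RNA per cell cannot be told apart.

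The family as a whole lay slightly lower on average in the knockout libraries, and lowest in knockout B and C. In knockout A its median deviation, described below, was above that of heterozygous A and below those of heterozygous B and C. The median log2 difference over the 80 tested members, knockout minus heterozygous on log2(normalized reads + 1), was -0.27 (quartiles -0.37 and -0.14), beside a median of 0.05 over all 18227 tested genes. The difference was negative for 70 of 80 members, against 47.7% of all tested genes. Most members lay close together, with 72 within 0.5 of 0 in either direction. Only 3 members passed the test as lower, among them Rpl29 and Rps2, against a background of 8.59% of all tested genes called lower. No member was called higher by limma, edgeR or DESeq2, against a background of 7.23% called higher by limma, and the 10 members with an unadjusted p under 0.05 (33.4% of all tested genes) all had negative differences. By edgeR 2 members were called lower, Rpl29 and Rps2 (background 8.25%), and by DESeq2 4, among them Rpl29, Rps2 and Rps28 (background 10.5%).

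**Figure D1:**
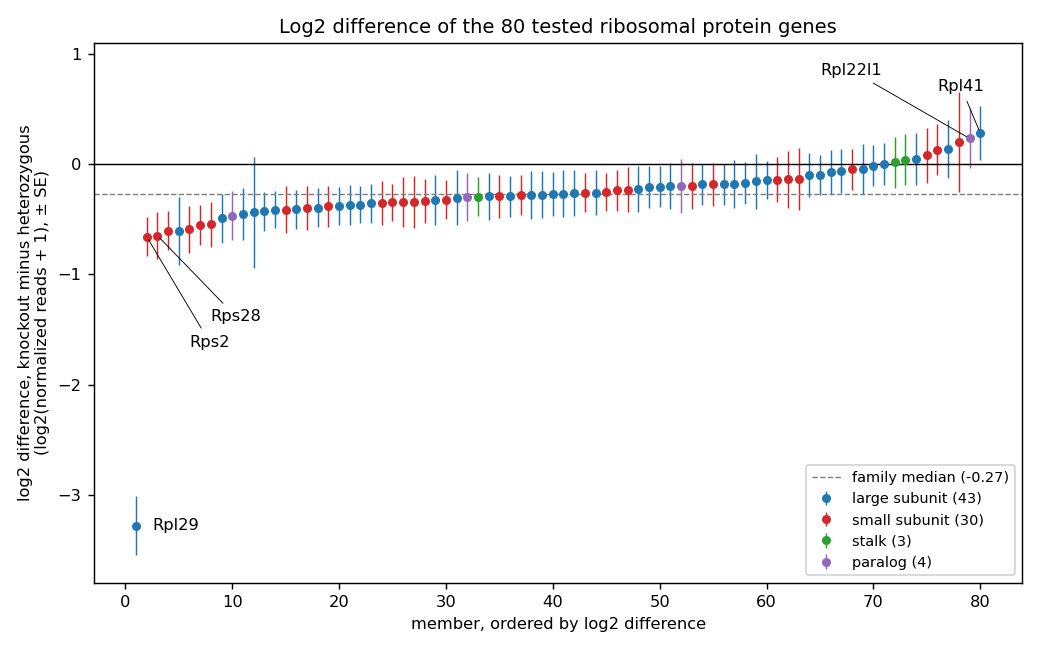
Log2 difference between genotypes (y axis, knockout minus heterozygous on log2(normalized reads + 1), bars ± SE from limma) for the 80 tested members in order of difference (x axis), coloured by class. Rpl29 lies at -3.28, while all other members lie between -0.66 and 0.29 around the family median of -0.27.

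The large subunit, small subunit and paralog medians lay close together, and that of the stalk genes lay near 0. The 43 tested large subunit genes had a median of -0.26 with 1 called, and the 30 small subunit genes a median of -0.30 with 2 called. The 3 stalk genes had a median of 0.02 and the 4 tested paralogs a median of -0.25, with none called. In 18 of the 80 tested members all 3 knockout values were under the lowest heterozygous value, against 20.2% of all tested genes. In 0 of the 80 all 3 were above the highest, against 18.5% of all tested genes. A band of 3 scaled median absolute deviations (0.51) on either side of the family median left out 2 members, Rpl29 below and Rpl41 above.

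Rpl29, a small protein of the large subunit also described as a heparin-binding protein, differed most. The gene (ENSMUSG00000048758) lies at chr9:106429454-106431568 on the plus strand of GRCm38. It stood at 682, 915 and 719 normalized reads in heterozygous A, B and C and at 92.1, 71.2 and 71.8 in knockout A, B and C. The groups were far apart, at 772 ± 125 (SD, n = 3) against 78.4 ± 11.9 (SD, n = 3), and the 3 knockout libraries, knockout A included, lay close together. Rpl29 fell 9.72-fold (log2 difference -3.28 ± 0.27 SE, limma adjusted p = 0.000886), the 7th smallest p among all tested genes. In the authors' deposited table its log2 fold change was -3.30 with an adjusted p of 2.97e-27.

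Part of the Rpl29 sequence also occurs elsewhere in the transcriptome. Of the 50-letter windows of its annotated transcripts, 35.5% were found in transcripts of other genes. Pseudogene rows that share such a window or are named after Rpl29 numbered 82. They summed to 429, 317 and 323 normalized reads in the heterozygous libraries and to 697, 595 and 469 in the knockout libraries. These sums were higher in every knockout library, while Rpl29 itself was lower in every one. Rpl29 and these rows together came to 1111, 1233 and 1042 in the heterozygous and to 789, 666 and 540 in the knockout libraries, and the log2 difference of that sum was -0.78 (limma adjusted p = 0.0378).

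The summed rows are not all copies of Rpl29 alone. The largest, 4931440P22Rik, shares 38 of the 1289 distinct windows of Rpl29, and stood at 127, 95.05 and 105 in heterozygous and at 347, 255 and 208 in knockout libraries (log2 difference 1.28 ± 0.32, adjusted p = 0.0281). The processed pseudogenes Gm8210 and Gm13841 share 284 windows each and did not pass, with log2 differences of 0.47 ± 0.39 (adjusted p = 0.421) and 0.57 ± 0.42 (adjusted p = 0.370). The protein-coding genes Uimc1 and Gm3550 share 342 and 183 windows with Rpl29 and were left out of the sum. With only the 3 pseudogene rows named after Rpl29 added, its log2 difference was -3.22. How many reads of Rpl29 were assigned to other genes was not tested, so its level is uncertain to that extent.

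**Figure D2:**
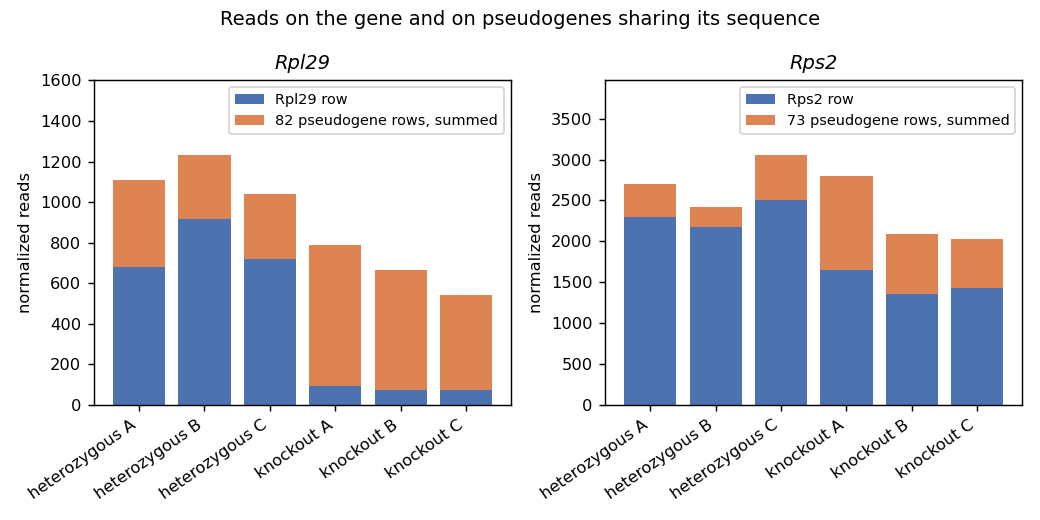
Normalized reads (y axis, bars from 0) in each of the 6 libraries (x axis) on the Rpl29 row and the Rps2 row (blue). Stacked on top are the pseudogene rows that share a 50-letter window with each or carry its name (orange, 82 and 73 rows). The blue part is smaller in each knockout library for both genes, and the stacked totals overlap between genotypes for Rps2 but not for Rpl29.

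The genes beside Rpl29 on the chromosome were measured in the same fit. Of the 9 tested genes that reach within 100 kb, 5 passed the test, against 15.8% of all tested genes. In 2 of the 9 all knockout values were below all heterozygous ones and in 5 above, against 20.2% and 18.5% of all tested genes. Abhd14b, an alpha/beta hydrolase-domain gene at chr9:106447459-106452923, stood at 564, 426 and 631 in heterozygous and at 166, 106 and 142 in knockout libraries. It fell 3.91-fold (log2 difference -1.97 ± 0.29, limma adjusted p = 0.00373).

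The other 4 neighbours that passed were higher in the knockout. Parp3, a poly-ADP-ribose polymerase of DNA repair, had a log2 difference of 1.33 ± 0.37 (adjusted p = 0.0412), and Dusp7, a MAP kinase phosphatase, 1.06 ± 0.31 (adjusted p = 0.0465). Acy1, an aminoacylase, had a difference of 0.66 ± 0.19 (adjusted p = 0.0474), and Abhd14a of 0.62 ± 0.18 (adjusted p = 0.0477). Abhd14a and Abhd14b overlap in part on opposite strands, as do Parp3 and Rrp9, and Pcbp4 and Gpr62. No strand setting of the counting is given in the sources used here, so reads in these overlaps cannot be told apart with certainty. Poc1a, Pcbp4, Gpr62 and Rrp9 did not pass, with log2 differences of -0.97, -0.68, 0.79 and -0.02. The neighbours therefore lay on both sides of 0.

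**Figure D3:**
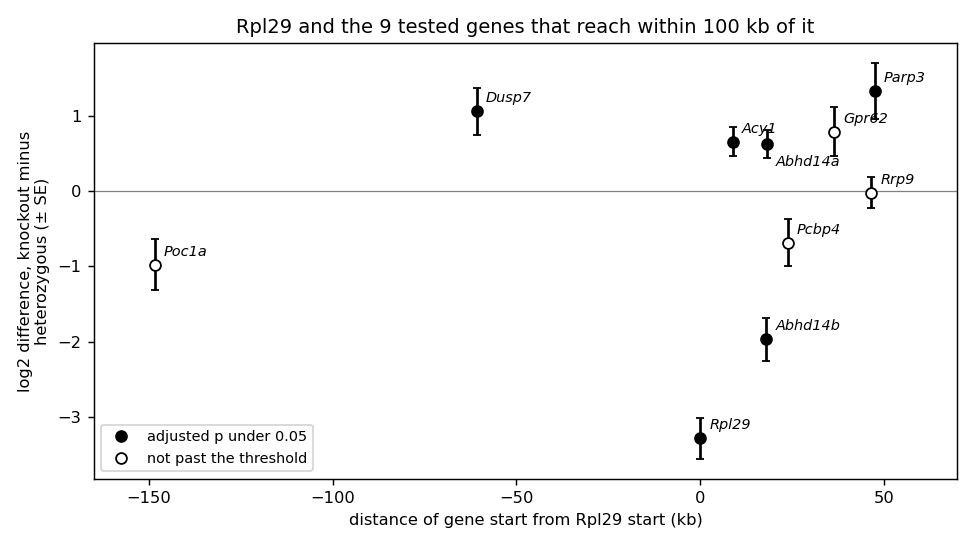
Log2 difference between genotypes (y axis, ± SE from limma) of Rpl29 and of the 9 tested genes that reach within 100 kb of it, by the distance of their start from the Rpl29 start (x axis, kb). Filled points passed the test; Abhd14b (-1.97) is the only filled neighbour below 0, and 4 filled neighbours lie above 0.

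Rps2, a protein of the small subunit near the channel through which messenger RNA enters, was also called lower. The gene lies at chr17:24718116-24721929 on the plus strand. It stood at 2296, 2171 and 2509 in the heterozygous and at 1644, 1361 and 1426 in the knockout libraries, so the genotypes did not overlap. Rps2 fell 1.58-fold (log2 difference -0.66 ± 0.18 SE, limma adjusted p = 0.0352).

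The call for Rps2 did not hold with its pseudogenes added. More of its windows (56.4%) than of those of Rpl29 were shared with other genes. The pseudogene Rps2-ps10, which shares 673 of the 1329 windows of Rps2, stood at 116, 78.4 and 163 in heterozygous and at 568, 406 and 376 in knockout libraries (log2 difference 1.95 ± 0.34, adjusted p = 0.00808). Rps2 and its 73 pseudogene rows together came to 2703, 2415 and 3057 in heterozygous and to 2794, 2091 and 2030 in knockout libraries. Knockout A then lay above heterozygous A and B, and the difference of the sum was -0.25 (limma adjusted p = 0.397). With the 12 rows named as Rps2 pseudogenes alone it was -0.31 (adjusted p = 0.257). The Rps2 row by itself lost the call when any library other than knockout A was left out, with adjusted p between 0.0531 and 0.169.

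Rps28, a small subunit protein near the exit of the messenger RNA channel, lay just outside the threshold. It stood at 1019, 1047 and 1210 in the heterozygous and at 820, 713 and 575 in the knockout libraries, with no overlap (log2 difference -0.65 ± 0.21, limma adjusted p = 0.0638). DESeq2 on recovered reads gave it an adjusted p of 0.0470. Its adjusted p in the authors' deposited table was 0.0447. The authors' deposited table holds 4 members below an adjusted p of 0.05 and lower, among them Rpl29, Rps2 and Rps28, and none higher, among 84 members with an adjusted p, against a background of 6.83%. Rpl13a, a large subunit protein that also takes part in translational silencing after interferon, had a difference of -0.60 with a wide error (± 0.31, adjusted p = 0.204). Its levels of 219, 247 and 301 in heterozygous and 224, 131 and 158 in knockout libraries overlapped through knockout A.

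Rps26, Rps9, Rpl3 and Rpl15 also had an unadjusted p under 0.05, and all but Rpl3 are named here after their values were seen. Their log2 differences lay between -0.59 and -0.41 and their adjusted p between 0.0856 and 0.125. Shared sequence was common in the family, with a median of 35.8% of windows over the 82 members measured and a maximum of 95.1% in Rpl35. Only 3 members had none, among them Rpl3l and Rpl39l.

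The 5 members with the highest differences all failed the test, and in 3 of them knockout A was far above the other libraries. Rpl41, which encodes one of the shortest proteins known, stood at 2938, 3458 and 4010 in heterozygous and at 5895, 3904 and 3203 in knockout libraries (log2 difference 0.29 ± 0.24, adjusted p = 0.442). Rpl38, a large subunit protein known for its part in the translation of Hox messages, stood at 1299, 1692 and 1553 in heterozygous and at 2464, 1532 and 1206 in knockout libraries (0.14 ± 0.27, adjusted p = 0.747). Rps27, a zinc-finger protein of the small subunit, stood at 1341, 1310 and 1625 against 2056, 1533 and 1196 (0.13 ± 0.23, adjusted p = 0.716). In all 3 genes the knockout libraries spanned a wider range than the heterozygous ones, with knockout A highest and knockout C lowest. Without knockout A the difference was 0.04 for Rpl41, -0.15 for Rpl38 and -0.07 for Rps27.

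Rpl22l1 and Rps10 were the remaining members of these 5. Rps10 had few reads, at 40.4, 65.7 and 102 in heterozygous and 64.7, 94.4 and 67.8 in knockout libraries (0.20 ± 0.45, adjusted p = 0.786). Rpl22l1, a paralog that can replace Rpl22 in the ribosome, stood at 469, 463 and 754 in heterozygous and at 792, 508 and 666 in knockout libraries (0.24 ± 0.27, adjusted p = 0.575). Rps10 overlapped widely between genotypes. For Rpl22l1 heterozygous C lay among the knockout values, while heterozygous A and B lay below all of them.

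**Figure D4:**
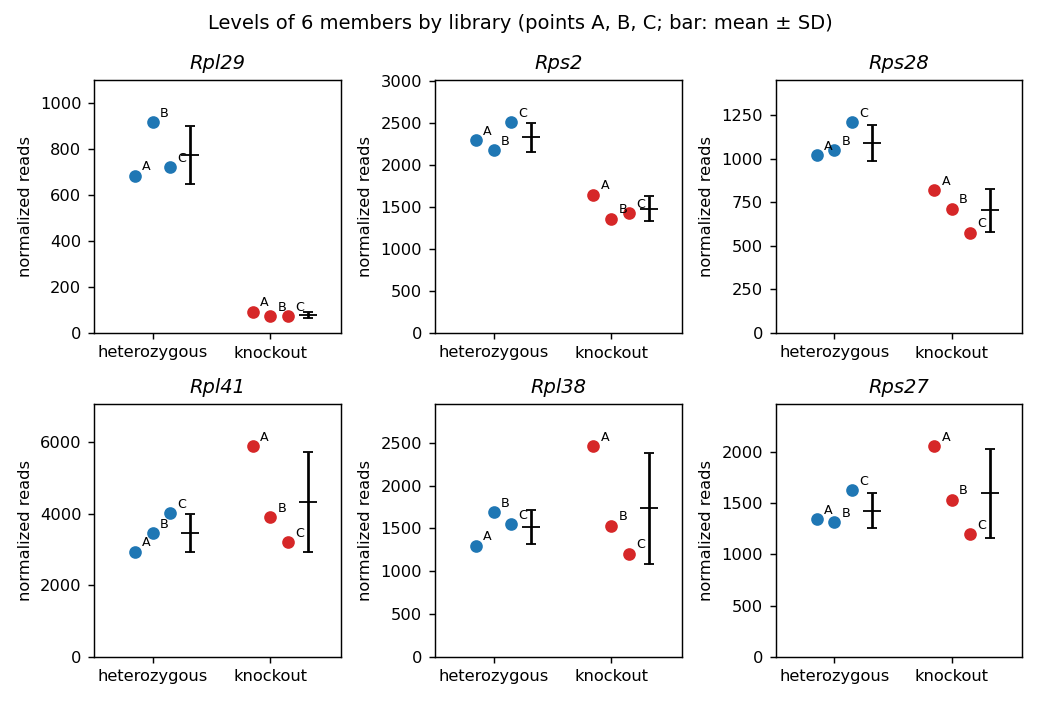
Normalized reads (y axes, starting at 0) of 6 members in the heterozygous (blue) and knockout (red) libraries A, B and C, with the mean ± SD (n = 3) of each genotype as a black bar. Rpl29, Rps2 and Rps28 do not overlap between genotypes, while Rpl41, Rpl38 and Rps27 are highest in knockout A (5895, 2464 and 2056) and overlap otherwise.

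The stalk proteins form the flexible arm of the large subunit that recruits the translation factors which hydrolyse GTP. Rplp0, the base of the stalk, stood at 6169, 7156 and 7069 in heterozygous and at 6387, 5391 and 4916 in knockout libraries (log2 difference -0.29 ± 0.18, adjusted p = 0.276). Rplp1 and Rplp2, which form its arms, had differences of 0.02 ± 0.23 (adjusted p = 0.958) and 0.04 ± 0.23 (adjusted p = 0.914). Both were highest in knockout A, at 2189 and 1942, above the highest heterozygous values of 1817 and 1638. Without knockout A their differences were -0.19 and -0.17.

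Rpl5 and Rpl11, which with 5S ribosomal RNA can bind Mdm2 and thereby stabilise p53, did not pass. Rpl5 stood at 3508, 4703 and 4236 in heterozygous and at 3405, 3124 and 3145 in knockout libraries (log2 difference -0.35 ± 0.18, adjusted p = 0.195), with knockout A just under heterozygous A. Rpl11 stood at 1510, 1785 and 1815 against 1947, 1465 and 1410 (-0.09 ± 0.20, adjusted p = 0.768). Its genotypes overlapped, with knockout A above every heterozygous library.

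Paralogs were set against the member they resemble within each library. Rpl22l1 amounted to 43.6%, 39.98% and 64.7% of Rpl22 in the heterozygous and to 63.5%, 44.7% and 66.3% in the knockout libraries. The genotypes overlapped, and the mean log2 ratio differed by 0.25, less than the SD of 0.37 among heterozygous libraries, and by 0.11 to 0.46 when 1 library was left out. Rpl22 itself was nearly level between genotypes (-0.01 ± 0.18, adjusted p = 0.975), and its sign depended on the scaling (0.03 with TMM scaling).

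Rps27l, a paralog of Rps27 induced by p53, was the more abundant of its pair in reads in every library. It amounted to 128%, 196% and 146% of Rps27 in heterozygous and to 103%, 114% and 128% in knockout libraries. Every knockout ratio lay below every heterozygous one, knockout C only just below heterozygous A, with a difference of -0.43 in mean log2 ratio (SD 0.31 and 0.16), or of -0.26 without heterozygous B. These are ratios of reads, not of levels per length. Rps27l stood at 1719, 2562 and 2378 against 2117, 1755 and 1529 (-0.29 ± 0.22, adjusted p = 0.369).

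Rpl7l1, whose relatives act in assembly of the large subunit, amounted to 99.0%, 145% and 81.9% of Rpl7 in heterozygous and to 64.7%, 74.6% and 113% in knockout libraries. Its level was 3564, 5180 and 3103 against 2554, 2677 and 3190 (-0.46 ± 0.22, adjusted p = 0.175), with knockout C above heterozygous C, and Rpl7 had a difference of -0.09 ± 0.18 (adjusted p = 0.750). Rps4l stayed between 10.7% and 15.7% of Rps4x in all 6 libraries. The annotation lists it as a transcribed processed pseudogene, and its reads may be shared with Rps4x. Rps4x had a log2 difference of -0.34 ± 0.17 (adjusted p = 0.179) and Rps4l of -0.20 ± 0.25 (adjusted p = 0.606).

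The 5 members under the filter were Rpl10l, Rpl39l, Rpl3l, Rpl32l and Rpl6l. Rpl10l, which is expressed mainly in testis, had no read in any library, while its partner Rpl10 stood between 2068 and 2972. Rpl39l, another testis form, had 5.48 normalized reads in knockout A and none elsewhere, beside 568 to 829 for Rpl39. Rpl3l, the form of striated muscle, had between 0 and 14.3, beside 3630 to 5857 for Rpl3. Rpl32l (2.00 to 12.1) and Rpl6l (1.01 to 11.8) are processed pseudogenes in the annotation despite their names. None of these partners passed, at log2 differences of -0.18 for Rpl10 (adjusted p = 0.512), -0.20 for Rpl39 (0.535) and -0.42 for Rpl3 (0.125).

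Levels per length are given as normalized reads per kb of merged exons, averaged over the 6 libraries. The median over tested members was 1000.4. Rplp0 (3726), Rpl4 (3585), which lines the exit tunnel, Rpl36 (3560), Rpl41 (3340) and Rplp1 (3294) were highest, all within a narrow range. Rps10 was lowest at 31.4. Merged exons include non-coding transcripts, which lowers the value of genes with long ones, and reads shared with pseudogenes also enter these levels. Of the 3 highest, Rpl4 had a log2 difference of -0.38 ± 0.18 (adjusted p = 0.164) without overlap between genotypes, and Rpl36 of 0.05 ± 0.24 (adjusted p = 0.909).

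The libraries of 1 genotype did not lie at the same height. The median deviation of the members from their own mean over the 6 libraries was -0.02, 0.23 and 0.20 (log2) in heterozygous A, B and C and 0.14, -0.25 and -0.30 in knockout A, B and C. Over all tested genes these medians lay between -0.01 and 0.01. Heterozygous A was therefore below knockout A for the family, while the other heterozygous libraries were above all knockout libraries. Knockout A was the highest knockout library for 76 of 80 members, against 38.9% of all tested genes, and heterozygous A the lowest heterozygous library for 63 of 80.

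**Figure D5:**
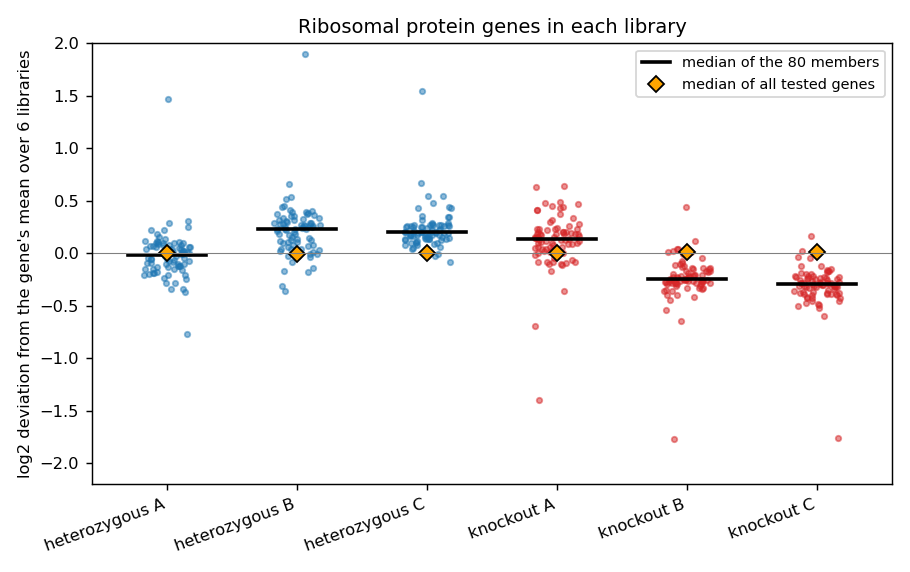
Log2 deviation of each of the 80 tested members from its own mean over 6 libraries (y axis) in each library (x axis), with the family median as a black line and the median of all tested genes as an orange diamond. The family median is lowest in knockout B and C (-0.25 and -0.30), at -0.02 in heterozygous A and at 0.14 in knockout A, while the diamonds stay near 0.

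The share of all assigned reads also set knockout A apart from the other knockout libraries, and there it was the highest of all 6. The family took 0.717%, 0.804% and 0.840% in heterozygous A, B and C and 0.851%, 0.622% and 0.549% in knockout A, B and C. The means were 0.787% ± 0.063 (SD, n = 3) and 0.674% ± 0.158 (SD, n = 3), a difference smaller than the spread among knockout libraries. With 3 libraries against 3, an exact test cannot go below p = 0.10, and none was made.

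Markers of 4 other cell types were also highest in knockout A. The 10 ependymal markers summed to 12244 to 13881 normalized reads in the heterozygous libraries and to 73912, 45156 and 17698 in knockout A, B and C. The 10 endothelial and mural markers summed to 11009 to 20361 and to 50318, 31647 and 13791. Of these 10, 1 was called higher, against 7.23% of all tested genes. The 5 blood cell markers summed to 1445 to 4343 and to 21655, 5377 and 681, and the 10 microglia markers to 3114 to 12942 and to 18749, 4781 and 4811, with none called in either list. Other lists had another order. The quiescent stem cell and astrocyte markers summed to 539100 to 748026 in heterozygous libraries and to 721877, 997981 and 1104290 in knockout A, B and C, lowest of the knockout libraries in A. The 11 oligodendrocyte lineage markers summed to 49688 to 72289 and to 95740.5, 77402 and 96176, and the 12 neuroblast markers to 76511 to 121851 and to 15920, 13850 and 17862, both highest of the knockout libraries in C. No marker of these lists was at 0 in every library. Their part in the height of knockout A was not tested.

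Without knockout A, 5 members were called lower, among them Rpl29, Rps2, Rps9 and Rps26, against a background of 7.01%, and the family median was -0.40. Leaving out any 1 of the other 5 libraries left 1 member called, Rpl29, and a median between -0.35 and -0.19, while 469 to 2063 of all genes were called lower in these fits. The number of members with a negative difference was 62 to 77 when 1 library was left out and 62 with upper-quartile scaling.

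Members varied less among heterozygous libraries than other genes of similar level, but not among knockout libraries. The median coefficient of variation over the 3 libraries was 12.1% in heterozygous and 18.2% in knockout libraries for the 80 members. For the 6754 other genes between 617 and 3724 mean normalized reads it was 17.1% and 16.04%. These are medians over genes that share the same libraries and were not tested.

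Shorter members tended to be higher in knockout A and lower in heterozygous A. Across 79 members with a coding sequence, all measured in the same 6 libraries, coding length and the log2 difference had a Spearman correlation of -0.32, and the Pearson correlation with log2 coding length was -0.17 (-0.33 without Rpl29). The Spearman correlation of coding length with the deviation in each library was 0.39, 0.29 and -0.13 in heterozygous A, B and C and -0.48, -0.22 and 0.25 in knockout A, B and C. Libraries of the same genotype thus differed in sign. The 27 shortest members (138 to 405 coding bases) had a median log2 difference of -0.25 with 8 positive, the 26 middle ones -0.27 with 1 positive, and the 26 longest (582 to 1257 coding bases) -0.36 with 1 positive. The deviation in knockout A had medians of 0.20, 0.14 and 0.05 in the same order.

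Ribosome components whose symbols the rule misses had a median log2 difference of -0.23. Of 6 such genes, none passed limma, against 15.8% of all tested genes called in either direction. An unadjusted p under 0.05 was found for 1 of the 6, against 33.4% of all tested genes. That gene was Rack1, a scaffold on the small subunit, at 3572, 4936 and 3826 in heterozygous and at 2990, 2344 and 2561 in knockout libraries (-0.64 ± 0.19, adjusted p = 0.0527), without overlap.

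Genes that build ribosomes had a lower median than the family itself. The list of 44 ribosome biogenesis genes had a median log2 difference of -0.41, with 2 called lower and 0 higher, a smaller share than the 8.59% and 7.23% of all tested genes. In 25 of the 44 all knockout values were under all heterozygous ones, against 20.2% of all tested genes. Rrn3, which brings RNA polymerase I to the ribosomal DNA, fell 2.00-fold from 2326 ± 347 to 1174 ± 258 (SD, n = 3 each; adjusted p = 0.0189). Nop56, a core protein of the box C/D small nucleolar particles, fell 1.79-fold (adjusted p = 0.0308). Whether the 2 medians differ was not tested.

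Of 32 translation factors and related genes 2 fell and none rose, against the 8.59% and 7.23% of all tested genes, with a median of -0.35. The difference was negative for 31 of the 32, against 47.7% of all tested genes. In 18 of the 32 all knockout values were under all heterozygous ones, against 20.2% of all tested genes. Eif4a1, the RNA helicase of cap-dependent initiation, fell 2.00-fold from 14665 ± 4306 to 7125 ± 447 (SD, n = 3 each; adjusted p = 0.0217), and Eif2s1, the alpha subunit of eIF2, fell 1.57-fold (adjusted p = 0.0406). Of 77 mitochondrial ribosomal protein genes tested, 2 fell, Mrps5 (-0.70 ± 0.20, adjusted p = 0.0453) and Mrpl18 (-0.66 ± 0.20, adjusted p = 0.0490), also a smaller share than 8.59%, with a median of -0.16. Of 14 non-coding hosts of small nucleolar RNAs none passed limma, against 15.8% of all tested genes called in either direction. Of the 14, 4 had an unadjusted p under 0.05, against 33.4% of all tested genes, and the median was -0.26.

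Of 16 regulators of ribosome production in the MYC family and the mTORC1 pathway 1 fell and 2 rose, against 15.8% of all tested genes called in either direction. The median was -0.20 and 14 of the 16 differences were negative, against 47.7% of all tested genes. Mycl, a MYC family transcription factor, stood at 4173, 4984 and 2866 in heterozygous and at 567, 720 and 999 in knockout libraries and fell 5.26-fold (log2 difference -2.40 ± 0.27, adjusted p = 0.00131). Max, the partner of MYC proteins, rose 2.01-fold (adjusted p = 0.0315), and Mtor, the kinase of mTORC1, rose 1.68-fold from 650 ± 128 to 1079 ± 33.9 (SD, n = 3 each; adjusted p = 0.0435). Of 21 p53 target genes 3 rose, Perp, Polk and Fas (log2 differences 1.15, 0.86 and 1.18), against 7.23% of all tested genes, none fell, and the median was 0.16.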

How the data were processed

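SMART-Seq v4 and Nextera XT libraries were made from at least 35 ng of total RNA, per the labels' protocols. HISAT2, featureCounts (Subread), DESeq2 and the build GRCm38 are named in the submitters' processing notes, without versions. The deposited values per library are a signal, read counts that the authors divided by 1 factor per library, and all of them (100%) were whole multiples of the value of 1 read within 0.001, so reads and depth were recovered. The authors' log2 fold changes, p-values and Wald and weight columns (scores) compare knockout with heterozygous libraries, per the file headers. Nothing says which mice went into each pool, so p-values measure the spread between 3 pools per genotype.

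Because the values were normalized, the test was limma 3.58.1 (R 4.3.3) with a mean-variance trend on log2(value + 1) over genes with a mean of at least 10, two-sided, with Benjamini-Hochberg adjustment over all genes tested and a threshold of 0.05. The fit used all 6 libraries and no covariates. It was tested on simulated data. edgeR 4.0.16 and DESeq2 1.42.0 on the recovered reads, other filters, pseudocounts and scalings, a replicate block and leaving out each library were alternatives. Sums with pseudogenes were added after seeing the data.

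Coordinates, exon and coding lengths and shared 50-letter windows came from GENCODE M21 (all 85 members matched), and promoters from RefSeq. Members and gene lists were chosen with earlier results of these data known. Members were named if called, among the 5 highest or 5 lowest differences, beyond 3 scaled median absolute deviations, a paralog or its partner, a stalk protein, Rpl5, Rpl11, under the filter, or at the ends of level per length, and up to 3 called genes of each pathway list were named. Intervals cover counting error only. A protein table and a genome sequence were not used here. Some genes of the family and lists are counted but not reported singly here.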

Additional observations from a re-analysis of the deposited data

How the results depend on the processing

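Rpl29 was called lower under all 17 alternatives, with log2 differences from -3.40 to -0.78, the last with its pseudogene rows added. The number of members called lower, 3, was 1 without a filter on low values, 1 with the replicate block and 1 with upper-quartile scaling. It was 2 with edgeR and TMM, with equal library totals and with either set of pseudogene rows added. It was 4 with DESeq2, and 1 to 5 when 1 library was left out. Of all genes, 1565 were called lower in the main fit, 1360 without the filter and 1406 with upper-quartile scaling. With TMM 1503 were lower, with DESeq2 2137, with equal totals 1687 and with either pseudogene sum 1564. No member was called higher under any of these. The family median stayed negative, from -0.40 to -0.17. Over all genes, leaving out 1 library gave 469 to 2063 genes lower and 109 to 1956 higher, and DESeq2 gave 2321 higher. With the replicate block, which pairs libraries by letter, 1205 genes were lower and 1105 higher, and Rps2 had an adjusted p of 0.0948. Libraries of 1 letter did not deviate together (correlations -0.07, 0.02 and -0.10 for A, B and C), so the letters were not taken as pairs. Differences near 0 changed sign. Rpl22 was 0.0150 with equal library totals, 0.0292 with TMM and 0.0870 with upper-quartile scaling, with which Rpl11 was 0.00857 and Rpl7 0.0127. When 1 library was left out, Rpl22 lay between -0.0848 and 0.0717, Rpl7 between -0.197 and 0.0433, Rpl36 between -0.184 and 0.197, Rpl38 between -0.147 and 0.367, Rplp1 between -0.192 and 0.131, Rplp2 between -0.167 and 0.206, Rps10 between -0.133 and 0.525, and Rps27 between -0.0669 and 0.323. The lowest values of Rpl22, Rpl7, Rpl36, Rpl38, Rplp1, Rplp2 and Rps27 came without knockout A, and that of Rps10 without heterozygous A. The cause of these changes was not tested. A pyrimidine run within 5 bases of the start was held by 47.6% of member promoters. With 3 pools per genotype, members whose differences are near their standard error cannot be placed on either side of 0. Equal library totals for single members and the pseudogene sums were chosen after seeing the data.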
